A study of Mus musculus with 6 samples.

Results

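The regulatory T cell programme was followed through 8 genes, *Foxp3*, *Nrp1*, *Entpd1*, *Nt5e*, *Lrrc32*, *Ebi3*, *Gpr83* and *Izumo1r*, in WT and RORγtN275D Th17 cells. They were picked by gene symbol from the 16244 genes of the deposited table, and all 8 were found. All 8 also passed the minimum used here, a mean of at least 10 normalized reads over the libraries, as did 11908 genes in total. A normalized read is the authors' read count of a gene multiplied by 1 factor per library.

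The study asked how a substitution in RORγt, the transcription factor that defines Th17 cells, alters these cells under inflammatory cytokines. Naive CD4 T cells from the spleens of WT mice or from RORγtN275D knockin mice on a C57BL/6 background were cultured for 3 days on anti-CD3 and anti-CD28, and 3 RNA-seq libraries were made for each genotype. The cytokines are given as IL-6, IL-1β and IL-23. The methods leave it unclear whether TGF-β and antibodies to IL-4 and IFN-γ were also present. They give age and sex for the mice of the study in general, not for these donors, and neither zygosity nor whether donors were littermates. According to the methods, WT mice were bought and the knockin mice came from another laboratory. Unless these donors were littermates, source and genotype cannot be told apart. The study describes its n in general as biologically independent, but the sources used here do not say for these libraries whether each came from a separate culture or mouse, so p-values measure the spread between libraries, which may be technical. Gene totals cannot show the substitution itself.

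Regulatory T cells restrain other T cells. Foxp3 is the transcription factor that fixes their identity, and it can be induced in naive CD4 T cells by TGF-β, where it opposes RORγt. The other 7 genes encode proteins by which such cells act or are recognized, but none is restricted to them. CD39 (*Entpd1*) and CD73 (*Nt5e*) turn extracellular ATP into adenosine, GARP (*Lrrc32*) holds latent TGF-β at the surface, and EBI3 is a shared chain of IL-27 and IL-35. Neuropilin-1 (*Nrp1*), the receptor GPR83 and folate receptor 4 (*Izumo1r*) are surface markers, the last of which, with CD73, also marks anergic CD4 T cells.

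Each library held between 17659035 and 18510878 reads assigned to genes. Means below carry the SD of the 3 libraries of a genotype (n = 3). WT replicate 3 lay farthest from its group, at a median distance of 0.10 on the log2 scale from the other WT libraries, against 0.06 to 0.08 for the other 5 libraries. It held the highest WT value of 6 of the 8 genes, whereas 40.5% of all genes tested had their highest WT value there. Results that change without it are given with their value without it. *Cd4*, *Cd3e*, *Il17a*, *Il17f* and the other markers of CD4 Th17 cells were all detected, 9 of 9 with a mean of at least 10, and their summed level was between 77556 and 81542 normalized reads in WT and between 89802 and 90732 in mutant libraries.

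The programme did not move as a unit. By limma on log2(normalized reads + 1), with p-values adjusted by the Benjamini-Hochberg method over all 11908 genes, *Entpd1*, *Nt5e* and *Lrrc32* were higher in RORγtN275D cells. *Nrp1*, *Gpr83*, *Izumo1r* and *Ebi3* were lower, and *Foxp3* was not called. At an adjusted p below 0.05 the calls thus took in 7 of 8, where the share over all genes tested was 50.9%. Of all genes tested, 24.7% were called higher and 26.1% lower. With a minimum of 2-fold added, *Entpd1* and *Nt5e* were called, both higher. That threshold was passed by 3.59% of all genes tested, 2.73% higher and 0.857% lower. The genotypes did not overlap for 6 of the 8 genes, 3 in each direction. Over all genes tested 57.7% showed no overlap, 28.1% with the mutant higher and 29.6% with it lower. For those 6 genes a two-sided exact permutation test gave p = 0.1, the smallest value that 3 against 3 libraries allow. The median log2 fold change of the 8 genes was -0.27, against -0.0026 for all genes tested.

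**Figure D1:**
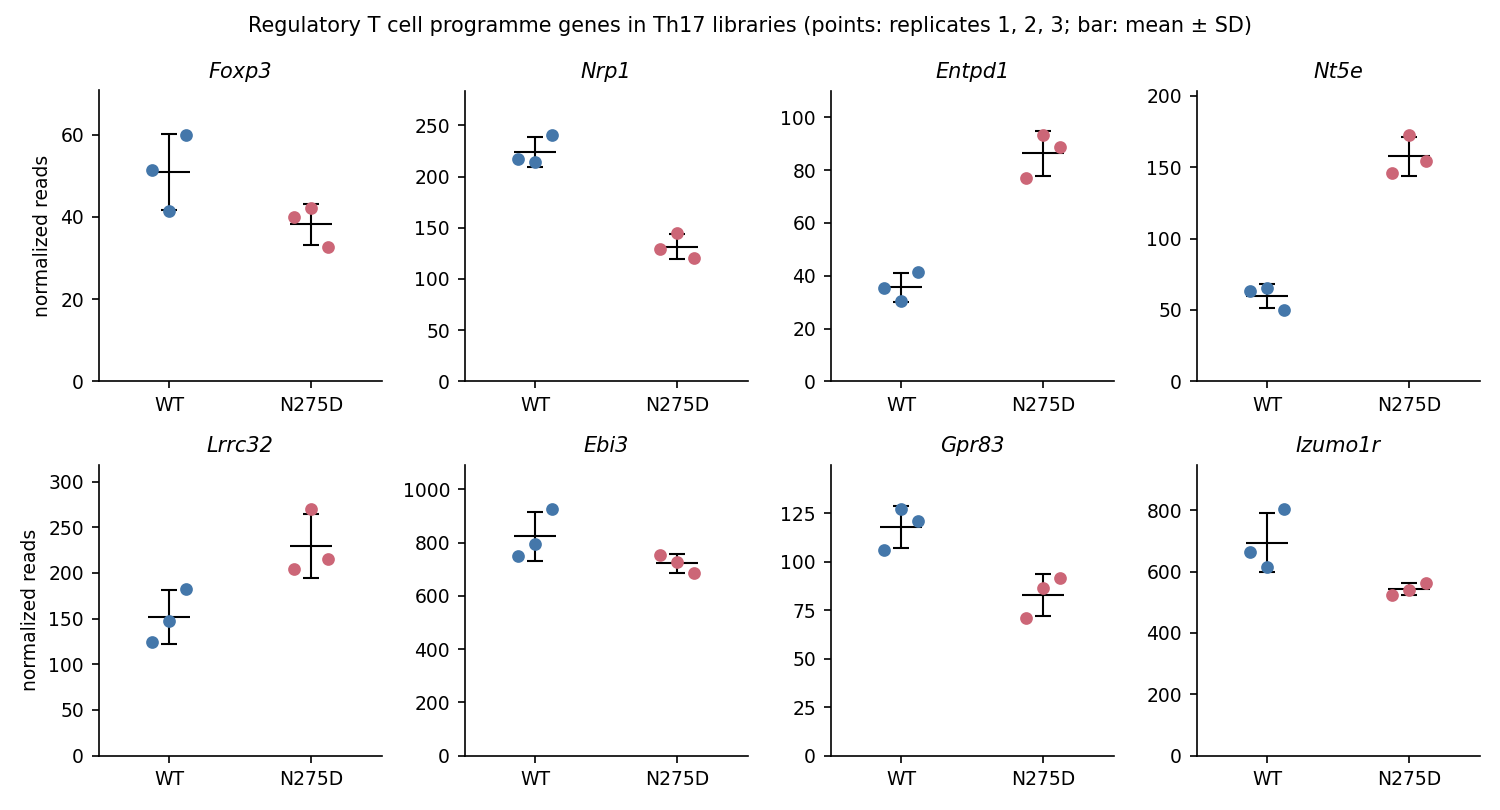
Normalized reads (vertical axes, from 0) of each gene in the 3 WT and 3 RORγtN275D (N275D) libraries, 1 point per library, with the mean and SD. The mutant points lie above all WT points for *Entpd1*, *Nt5e* and *Lrrc32*, below them for *Nrp1*, *Gpr83* and *Izumo1r*, and among them for *Foxp3* and *Ebi3*.

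*Foxp3* (GRCm38 chromosome X, 7579676 to 7595243) had 51.5, 41.4 and 59.9 normalized reads in the WT libraries and 39.9, 42.1 and 32.6 in the mutant libraries. The genotypes overlapped, since mutant replicate 2 lay above WT replicate 2. WT libraries averaged 50.9 ± 9.29 and mutant libraries 38.2 ± 5.0. This corresponded to a log2 fold change of -0.40 (95% interval -0.78 to -0.02) with an adjusted p of 0.0755 from limma, and the exact permutation p was 0.2. These values rest on 33 to 61 reads per library. The summed reads were 153 in WT (exact Poisson 95% interval 130 to 179) and 115 in mutant cells (94.9 to 138), intervals that cover counting error only. In bulk RNA, fewer cells that express a gene and less RNA per cell cannot be told apart. *Foxp3* was called lower without WT replicate 2 (log2 fold change -0.54, adjusted p = 0.0284 from limma) and under quantile normalization (-0.57, adjusted p = 0.0164). Without WT replicate 3 the value was -0.27 (adjusted p = 0.257).

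In GENCODE M21, *Foxp3* shares sequence with *Ccdc22* and *Ppp1r3f* on the other strand and with the noncoding gene *Flicr* on its own strand. The libraries are described as strand-specific, but the strand setting of the counting is not stated. *Ccdc22* (428 normalized reads in WT against 422, adjusted p = 0.809 from limma) and *Ppp1r3f* (67.6 and 68.4, adjusted p = 0.927) were not called. Of the genes tested, *Myh3*, *1700037C18Rik* and *Pole3* followed *Foxp3* most closely over the 6 libraries. Their root mean square differences from it, on log2 values centred on each gene's mean, were 0.06, 0.07 and 0.08.

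RefSeq lists a pair of transcript starts for *Foxp3*. The 250 bases before the downstream start (chrX:7580233-7580482, plus strand) are shown because they hold the core of the element to which ROR factors bind. A 30-base stretch at the far end of the window searched for *Nrp1* (chr8:128358823-128358852, plus strand) is shown for the same reason. This stretch lies inside the listed span of *Nrp1*, which begins at 128358591. The 250 bases before the downstream start of *Entpd1* (chr19:40659520-40659769, plus strand), a gene that rose, are shown for comparison. Sequences are from RefSeq on GRCm38.p6, read 5′ to 3′. Capitals mark AGGTCA or its reverse complement, the core of the ROR element, and TTCNNNGAA, a site of STAT factors, which do not overlap here.

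Foxp3: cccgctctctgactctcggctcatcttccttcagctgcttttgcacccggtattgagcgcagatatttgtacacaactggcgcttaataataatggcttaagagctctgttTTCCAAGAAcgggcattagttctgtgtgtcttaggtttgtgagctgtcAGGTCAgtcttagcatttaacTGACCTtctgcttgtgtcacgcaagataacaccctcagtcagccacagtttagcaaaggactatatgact
Nrp1: ctagTGACCTtcttcccgcggagagcacag
Entpd1: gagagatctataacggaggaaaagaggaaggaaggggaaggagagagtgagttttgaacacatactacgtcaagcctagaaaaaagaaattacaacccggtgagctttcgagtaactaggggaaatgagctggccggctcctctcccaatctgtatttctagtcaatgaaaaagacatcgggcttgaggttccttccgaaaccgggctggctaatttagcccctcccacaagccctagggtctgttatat

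Both strands of the 250 bases before each start were searched, in 9 windows of 7 of the 8 genes. The *Nrp1* and *Gpr83* windows, and those at the downstream starts of *Foxp3* and *Entpd1*, lie inside the listed spans of these genes. The *Izumo1r* window lies partly inside. AGGTCA was found in 2 of the 9 windows, those of *Foxp3* and *Nrp1* shown above, where 14.0% of all 32851 such windows hold it. *Ebi3*, *Gpr83* and *Izumo1r*, which were called lower as *Nrp1* was, did not have it in their windows, nor did *Entpd1* and *Nt5e*. *Foxp3* itself was not called. In the *Foxp3* window this core begins 91 bases before the start on the plus strand, and a second copy on the minus strand lies 70 to 65 bases before it. TTCNNNGAA was found in the *Foxp3* window and 7.02% of all windows. ACGTG, the core of the hypoxia response element that HIF-1 binds, was in 0 of the 9 windows and in 16.6% of all. TGTTTAC, a forkhead site, was in 0 of the 9 and in 3.17% of all. A match of letters is a description and does not show that a factor is bound.

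Transcripts of both enzymes that convert extracellular ATP to adenosine rose, and the mutant mean of each was over 2 times the WT mean. These libraries do not measure protein or enzyme activity. *Nt5e* (chromosome 9, 88327609 to 88372089), whose product CD73 makes adenosine from AMP, had 63.6, 65.6 and 50.1 normalized reads in the WT libraries and 146, 173 and 154 in the mutant libraries. The lowest mutant library lay far above the highest WT library. The mean was 2.64 times higher, 157 ± 13.7 against 59.8 ± 8.42, a log2 fold change of 1.39 (95% interval 1.12 to 1.66, adjusted p = 2.17e-07 from limma). *Entpd1* (chromosome 19, 40612366 to 40741602), whose product CD39 makes AMP from ATP and ADP, had 35.3, 30.3 and 41.3 normalized reads in WT and 76.9, 93.3 and 88.9 in mutant libraries. The genotypes again lay well apart. Its mean was 2.42 times higher, 86.3 ± 8.50 against 35.6 ± 5.50, a log2 fold change of 1.26 (95% interval 0.93 to 1.59, adjusted p = 5.87e-06 from limma). The absolute change of *Nt5e* exceeded that of 98.6% of all genes tested, and that of *Entpd1* exceeded 98.1%. The genes that followed *Nt5e* most closely over the 6 libraries were *Mycn*, *LOC118567557* and *Nebl*, with root mean square differences of 0.06, 0.06 and 0.09 on the log2 scale.

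**Figure D2:**
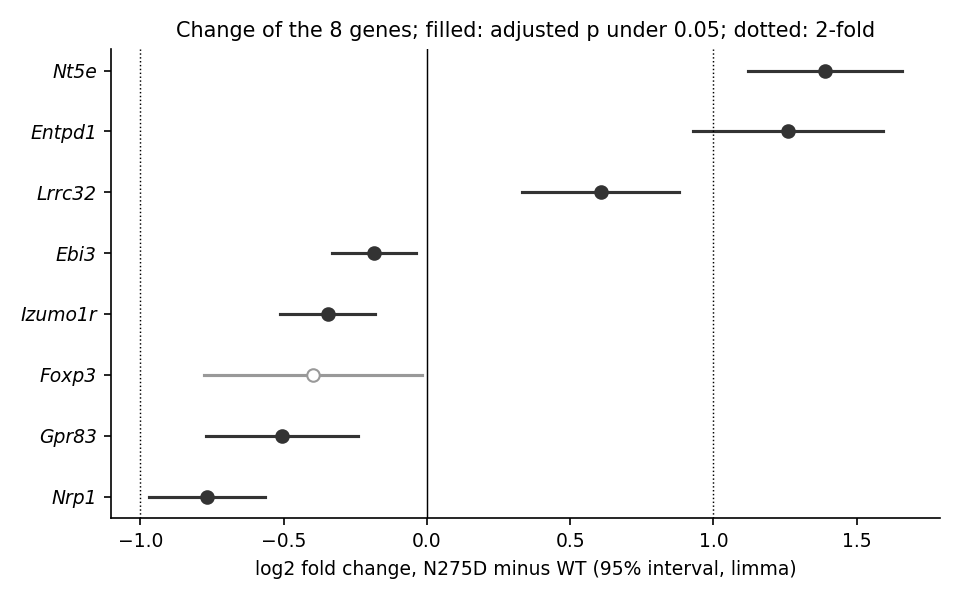
Log2 fold change of RORγtN275D over WT (horizontal axis) of each gene with its 95% interval from limma, filled where the adjusted p was under 0.05, with dotted lines at 2-fold. *Nt5e* (1.39) and *Entpd1* (1.26) lie beyond the upper line, and the open point of *Foxp3* (-0.40) has the widest interval of the genes with a negative value.

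CD39 and CD73 are also made by B cells, macrophages and endothelial cells, and transcripts of B cells moved with *Entpd1* and *Nt5e*. According to the methods, the CD4 T cells were purified before culture by a kit that depletes other cells. Of 6 B cell markers, 4 were called higher and 0 lower in the mutant, and their sum was between 1117 and 1155 normalized reads in WT and between 1687 and 1754 in mutant libraries. Most of that sum was *Ebf1* (967 to 995 in WT and 1414 to 1538 in mutant libraries), while *Ms4a1*, which mature B cells express, did not exceed 1.01 in WT and lay between 3.99 and 9.88 in mutant libraries. The 6 macrophage and monocyte markers summed to between 89.8 and 108 in WT and between 105 and 130 in mutant libraries, with *Cd14* called higher and *Adgre1* lower. Markers of CD8 T and NK cells summed to between 182 and 195 in WT and between 251 and 281 in mutant libraries, with *Cd8b1* and *Eomes* called higher. *Cd8a*, the defining marker of CD8 T cells, was not called (32.6 ± 6.70 and 27.6 ± 2.67, adjusted p = 0.401 from limma), and *Klrb1c*, an NK cell marker, was at 0 in every mutant library. Of 3 gamma delta T cell markers, *Sox13* and *Blk*, which B cells also express, summed to between 31.3 and 41.3 in WT and between 58.3 and 65.9 in mutant libraries, and *Trdc* is not among the genes listed. The part of other cells in the rise of *Entpd1* and *Nt5e* was not tested.

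The other genes of extracellular ATP and adenosine handling did not share a direction. Of 22 listed genes 18 were tested, and 5 were called higher, 7 lower and 6 not called, with a median log2 fold change of -0.07. Among receptors, *Adora2b*, a low-affinity adenosine receptor, rose from 147 ± 25.3 to 238 ± 13.4 normalized reads (log2 fold change 0.70, adjusted p = 5.57e-05 from limma). *Adora2a*, the main adenosine receptor of T cells, fell by 0.18 on the log2 scale (adjusted p = 0.0054) from a higher level, 1733 ± 55.6 normalized reads. *P2rx7*, an ATP-gated channel, fell by 0.81. *Enpp1*, which releases AMP from nucleotides, and *Cd38*, which consumes extracellular NAD, rose by 1.00 and 0.76. The nucleoside transporters *Slc29a2* and *Slc29a1* fell by 0.52 and 0.44, and *Ada*, which breaks adenosine down, fell by 0.42. *Entpd4*, an intracellular relative of CD39 with a closely related gene copy, was listed at 0 in 3 libraries and between 52.3 and 268 in the others, and was not called (adjusted p = 0.111 from limma). Its log2 fold change was -3.23. It was called lower without WT replicate 3 (-5.80, adjusted p = 6.84e-06 from limma) or mutant replicate 3 (-5.14, adjusted p = 0.0183), each a library that broke with the others of its genotype. It was also called lower with library weights (-5.10, adjusted p = 0.000521) and by edgeR on recovered reads (adjusted p = 0.0111), but not by DESeq2 (adjusted p = 0.546).

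*Lrrc32* (chromosome 7, 98489305 to 98501831) had 124, 147 and 183 normalized reads in WT and 205, 270 and 215 in mutant libraries. All mutant libraries lay above all WT libraries, but WT replicate 3 came close to the lowest of them. The mean was 1.52 times higher, 230 ± 35.0 against 151 ± 29.5, a log2 fold change of 0.61 (95% interval 0.33 to 0.88, adjusted p = 0.000981 from limma). GARP is also found on platelets and endothelial cells. Of 5 markers of megakaryocytes and platelets, 4 had a mean below 10 and were not tested, and the other 1 was called higher. The 5 markers summed to between 30.3 and 38.3 normalized reads in WT and between 68.1 and 83.9 in mutant libraries. Of these, *Pf4*, a platelet chemokine, lay between 1.01 and 3.03 in WT and between 8.98 and 14.0 in mutant libraries, and *Gp9* and *Gp1bb* were at 0 in at least 1 library. Of 4 endothelial markers *Pecam1*, which T cells also express, made up most of the sum (281 to 352 in WT and 396 to 447 in mutant libraries), *Kdr* did not exceed 1.01 in any library and *Cdh5* is not among the genes listed. The part of platelet RNA in the change of *Lrrc32* was not tested.

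Listed genes of the path that GARP serves, the release of TGF-β from its latent form and the response to it, were called in both directions. Of 22 listed genes 19 were tested, with 10 called higher, 3 lower and 6 not called. Over all genes tested, 24.7% were called higher and 26.1% lower. The median log2 fold change was 0.28 against -0.0026 for all genes tested. Those not called included *Tgfbr1*, *Smad2*, *Smad4* and *Smad7*. *Itgav* and *Itgb8*, the chains of the integrin αvβ8 that frees TGF-β from GARP, rose by 0.56 and 0.42 on the log2 scale. *Tgfbr3*, a co-receptor, rose by 0.54 and *Tgfb3* by 0.69, the latter from 20.7 ± 5.54 normalized reads. The call of *Tgfb3* was lost without WT replicate 1, mutant replicate 1 or mutant replicate 3 (0.50, 0.58 and 0.69, adjusted p = 0.0965, 0.097 and 0.0567 from limma). It was also lost under quantile normalization (adjusted p = 0.0914 from limma) and with DESeq2 (adjusted p = 0.0821). *Nrros*, which holds latent TGF-β on myeloid cells and microglia as GARP does on T cells, fell by 0.52. *Ski*, a repressor of the response, fell by 0.18, whereas its relative *Skil* rose by 0.33 (adjusted p = 0.000221 from limma). *Tgfb1*, the cytokine itself, fell by 0.12 (adjusted p = 0.0254 from limma), a call that was lost under quantile normalization (adjusted p = 0.269) and without WT replicate 3, mutant replicate 1 or mutant replicate 2 (-0.08, -0.13 and -0.10, adjusted p = 0.0518, 0.0546 and 0.120). The call was also lost in eBayes without a trend (adjusted p = 0.108 from limma).

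*Nrp1* (chromosome 8, 128358591 to 128505476) fell most of the 8 genes. It had 217, 214 and 241 normalized reads in WT and 129, 144 and 120 in mutant libraries, so that the genotypes lay far apart. The means were 224 ± 14.6 and 131 ± 12.2, with a log2 fold change of -0.77 (95% interval -0.97 to -0.57, adjusted p = 6.08e-06 from limma). Neuropilin-1 binds semaphorins and VEGF and works with plexins. Of 18 listed ligands and co-receptors 13 were tested, with 3 called higher and 4 lower (median log2 fold change -0.08). *Plxna1*, a plexin that partners neuropilins, fell by 0.73, and *Sema4a*, a ligand of Nrp1 on regulatory T cells, fell by 0.28. *Plxnd1* fell by 0.30, whereas *Plxnc1*, a plexin for another semaphorin, rose by 0.66. *Nrp2* was not called (adjusted p = 0.790 from limma). Nrp1 is also a marker of plasmacytoid dendritic cells, whose marker *Siglech* is not among the genes listed. The other 4 dendritic cell markers, none of them specific to plasmacytoid cells, summed to between 52.5 and 77.6 normalized reads in WT and between 83.0 and 102 in mutant libraries. *Flt3* was called higher, *Zbtb46* was not called (adjusted p = 0.468 from limma), and *Itgax* and *Xcr1* were below the minimum. The part of dendritic cells in the fall of *Nrp1* was not tested.

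*Ebi3* (chromosome 17, 55952623 to 55957022) had 751, 793 and 925 normalized reads in WT and 755, 725 and 685 in mutant libraries. Mutant replicate 1 lay above WT replicate 1, so the genotypes overlapped (exact permutation p = 0.2). The means were 823 ± 91.0 and 722 ± 34.8, with a log2 fold change of -0.18 (95% interval -0.33 to -0.04, adjusted p = 0.0363 from limma). The size of this change was exceeded by about as many of the genes tested as fell short of it, at the percentile 49.7. Without WT replicate 3, the highest library, the log2 fold change was -0.10 and the call was lost (adjusted p = 0.141 from limma). It was also lost without mutant replicate 2 (-0.19, adjusted p = 0.0793) or mutant replicate 3 (-0.15, adjusted p = 0.151), and in 8 of 17 alternatives in all. An antisense gene, *Gm16712*, overlaps *Ebi3* and is not among the genes listed.

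**Figure D3:**
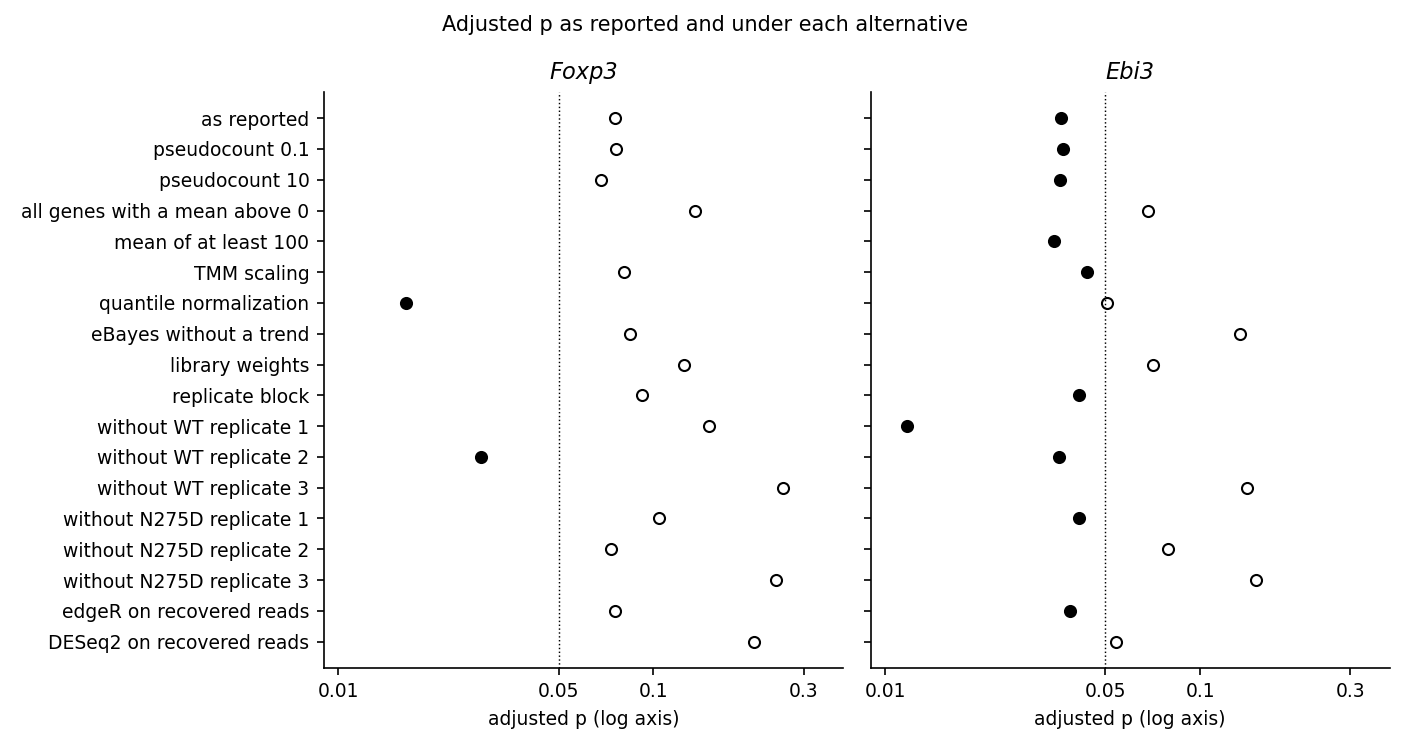
Adjusted p (log axis) of *Foxp3* and *Ebi3* as reported and under each alternative (rows), filled where under 0.05, with a dotted line at 0.05; *Foxp3* has no point at a minimum mean of 100, where it was not tested. *Foxp3* is filled in 2 rows, quantile normalization and without WT replicate 2, and *Ebi3* loses its call in 8.

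The chains with which EBI3 pairs had few reads. *Il12a*, its partner in IL-35, stayed at or below 2.02 normalized reads throughout, and *Il27*, its partner in IL-27, had 27.3, 18.2 and 46.2 in WT and 15.0, 20.1 and 11.9 in mutant libraries. Of 9 genes for IL-12 family chains and receptors 7 were tested, with 4 called higher and 3 lower (median log2 fold change 0.22). *Il12rb2*, the inducible IL-12 receptor chain that also serves IL-35, rose from 1162 ± 17.1 to 2790 ± 31.4 normalized reads, a log2 fold change of 1.26 (adjusted p = 9.25e-13 from limma). *Il23a* rose by 0.99 and *Il23r* by 0.70. *Il27ra*, the receptor chain for IL-27, fell by 0.42 and *Il12rb1* by 0.30, and *Il27* fell by 0.85 (adjusted p = 0.0281), a call lost without WT replicate 1, WT replicate 3, mutant replicate 1 or mutant replicate 3 (-0.88, -0.51, -0.84 and -0.68, adjusted p = 0.0568, 0.160, 0.0655 and 0.111 from limma).

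*Gpr83* and *Izumo1r* lie beside each other on chromosome 9, from 14859880 to 14870789 and from 14885814 to 14903951, with 15024 bases between them and on opposite strands. *Gpr83*, a G protein-coupled receptor enriched in regulatory T cells, had 106, 127 and 121 normalized reads in WT and 70.9, 86.3 and 91.8 in mutant libraries. The means were 118 ± 10.8 and 83.0 ± 10.9, a log2 fold change of -0.51 (95% interval -0.77 to -0.24, adjusted p = 0.00308 from limma). *Izumo1r* had 664, 616 and 803 in WT and 525, 541 and 563 in mutant libraries, with means of 695 ± 97.2 and 543 ± 19.0. Its log2 fold change was -0.35 (95% interval -0.51 to -0.18, adjusted p = 0.00169 from limma), and -0.24 (adjusted p = 0.00158) without WT replicate 3. For both genes all mutant libraries lay below all WT libraries. The nearest genes tested on either side, *Mre11a* (-0.16, adjusted p = 0.0104) and *Panx1* (-0.06, adjusted p = 0.430 from limma), had smaller log2 fold changes, and *Fut4* a little farther off rose by 0.41 (adjusted p = 0.000564). Beyond *Panx1*, *Hephl1* rose by 1.25 from a low level, 6.03 to 14.3 normalized reads (adjusted p = 0.0149 from limma). *Ankrd49* and *Amotl1*, on the side of *Fut4*, were not called. Of the other folate receptors, *Folr1* and *Folr2* are not among the genes listed, while the folate carriers *Slc19a1* and *Slc46a1* fell by 0.46 and 0.50. The call of *Slc46a1* was lost without mutant replicate 3 (-0.39, adjusted p = 0.0818 from limma) and with DESeq2 (adjusted p = 0.107).

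Per kilobase of merged exons in GENCODE M21, which allows levels of different genes to be compared, *Ebi3* and *Izumo1r* stood far above the other 6 genes. In WT cells the order was *Ebi3* (713 ± 78.9 normalized reads per kilobase), *Izumo1r* (299 ± 41.9), *Lrrc32* (32.3 ± 6.29), *Gpr83* (23.2 ± 2.13), *Nrp1* (22.9 ± 1.5), *Foxp3* (11.1 ± 2.03), *Nt5e* (6.95 ± 0.98) and *Entpd1* (6.38 ± 0.99). *Gpr83* and *Nrp1* overlapped between libraries, as did *Nt5e* and *Entpd1*, and the other neighbours did not. In mutant cells *Nt5e* (18.3 ± 1.59) and *Entpd1* (15.5 ± 1.52) had moved above *Foxp3* (8.35 ± 1.09), which was then the lowest of the 8. The 4 genes from *Nt5e* through *Gpr83* (16.3 ± 2.13) and *Entpd1* to *Nrp1* (13.4 ± 1.24) each overlapped with the next. *Foxp3* lay at the percentile 10.5 of all tested genes with a length.

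**Figure D4:**
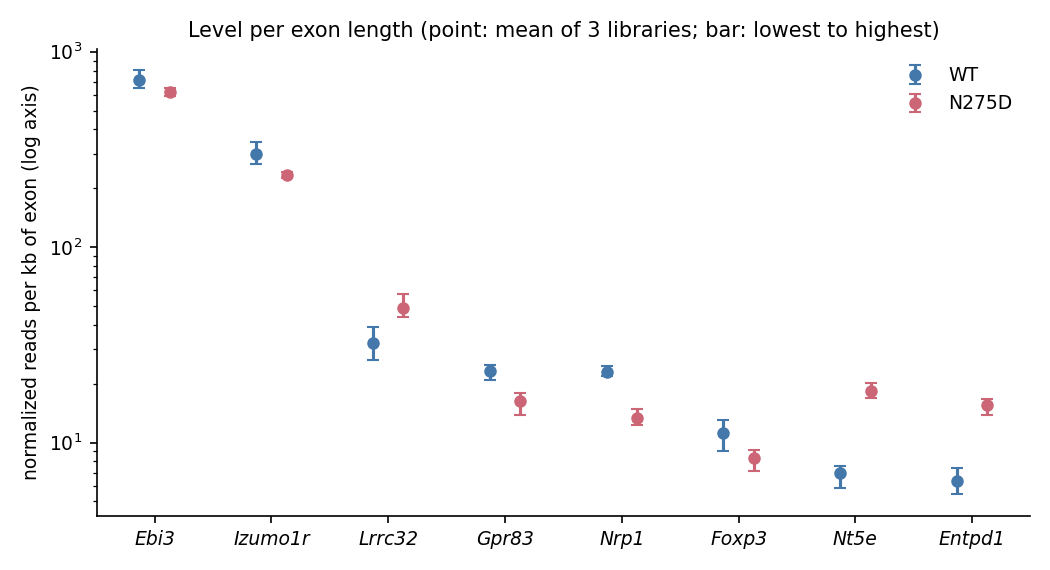
Normalized reads per kilobase of exon (log axis) in WT and RORγtN275D cells, with the mean of 3 libraries as a point and the lowest and highest library as a bar. *Nt5e* and *Entpd1* are the lowest in WT cells, at 6.95 and 6.38, and lie above *Foxp3* in mutant cells.

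Genes that are used with these 8 to describe regulatory T cells were taken from a list of 24, none of them among the 8. Of 23 tested, 14 were called higher, 4 lower and 5 not called, and the median log2 fold change was 0.39. Many of them are also induced by activation of any T cell. *Tnfrsf9* (4-1BB) rose from 673 ± 45.7 to 2568 ± 82.8 normalized reads, a log2 fold change of 1.93 (adjusted p = 1.42e-13 from limma), and *Fgl2*, which encodes a secreted suppressive protein, had 19.2, 20.2 and 26.5 normalized reads in the WT libraries and rose to 63.9, 71.2 and 79.0 (log2 fold change 1.67, adjusted p = 1.39e-06 from limma). *Il10*, an inhibitory cytokine, rose by 0.71. *Il2ra* (CD25), which regulatory T cells express constitutively, rose by 0.30 to 32556 ± 497 normalized reads. *Ctla4*, an inhibitory receptor and target of Foxp3, fell by 0.24 and *Areg*, a tissue repair factor, by 0.44. *Il1rl1*, the IL-33 receptor, fell by 0.48, a call lost without any one of WT replicates 1 and 2 and mutant replicates 1 and 2 (-0.51, -0.36, -0.41 and -0.48, adjusted p = 0.0503, 0.139, 0.0958 and 0.0599 from limma). *Ikzf2* (Helios), a mark of thymic regulatory T cells, was not called (405 ± 41.8 and 452 ± 29.3 normalized reads, adjusted p = 0.099 from limma) except without WT replicate 1 (log2 fold change 0.23, adjusted p = 0.0261). *Klrg1* reached at most 4.01 normalized reads.

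Among 31 listed regulators and cofactors of *Foxp3*, 8 were called higher, 16 lower and 7 not called (median log2 fold change -0.14). The lower ones include factors that act on the *Foxp3* locus after T cell receptor signalling. *Nfatc1* fell by 1.07, the 1 gene of the list past 2-fold, and *Nr4a1*, *Nr4a2* and *Rel* fell by 0.84, 0.42 and 0.40. *Stat5a* and *Stat5b*, which both carry the IL-2 signal to *Foxp3*, were called in opposite directions, with log2 fold changes of -0.22 and 0.10. The call of *Stat5b* was lost without WT replicate 1 or 2 or mutant replicate 1 or 2 (0.10, 0.09, 0.09 and 0.11, adjusted p = 0.0581, 0.0664, 0.105 and 0.0577 from limma). It was also lost with a block for the replicate number (adjusted p = 0.0561) and in eBayes without a trend (adjusted p = 0.0742 from limma). *Foxo1* (0.40), *Tet2* (0.46), which removes DNA methylation, and *Gata3* (0.59) rose.

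Of 9 listed genes that Foxp3 is known to repress, 8 were tested. In the mutant 6 were called higher, among them *Ifng*, *Ptpn22*, *Satb1* and *Pde3b*, *Zap70* was not called (adjusted p = 0.174 from limma), and *Il2* was called lower. The median log2 fold change was 0.30. *Ptpn22*, a phosphatase of T cell receptor signalling, rose from 1483 ± 21.3 to 1959 ± 16.8 normalized reads, and *Pde3b*, a cyclic AMP phosphodiesterase, from 1544 ± 84.5 to 1901 ± 4.13. *Il2* fell by 2.27 on the log2 scale, the largest change of any gene called in these lists.

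*Nt5e* and *Izumo1r*, whose products CD73 and folate receptor 4 together mark anergic CD4 T cells, moved in opposite directions here. Of 13 genes associated with anergy, 6 were called higher, 6 lower and 1 not called (median log2 fold change -0.08). *Ndrg1* (1.28) and the ubiquitin ligase genes *Cblb* (1.10) and *Rnf128* (0.92) were among those that rose. *Egr3* (-1.55), *Nr4a1* (-0.84) and *Pdcd1* (-0.80) were among those that fell. Of 7 genes of naive and recirculating T cells 4 rose, among them *Il7r* (1.34) and *S1pr1* (1.04), while *Lef1* fell by 0.43 and *Tcf7* and *Klf2* were not called.

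**Figure D5:**
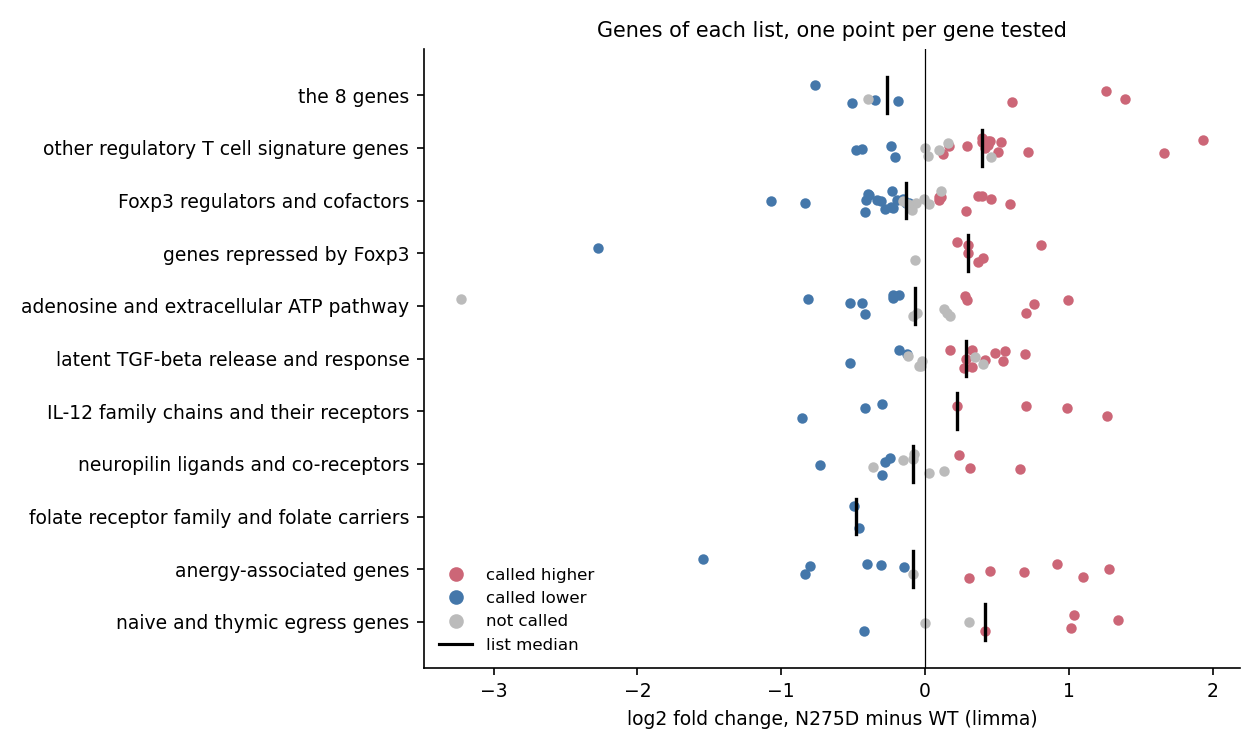
Log2 fold change of RORγtN275D over WT (horizontal axis) for the 8 genes (top row) and for each list, 1 point per gene tested, coloured by call at an adjusted p under 0.05 from limma, with the list median as a black bar. Calls in both directions are present in every row but that of the folate genes, and the median is positive for the other regulatory T cell genes (0.39) and negative for the 8 genes (-0.27).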

How the data were processed

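RNA-seq was analysed for 3 WT and 3 RORγtN275D libraries, grouped by their labels. The study's methods name trimming, alignment by STAR to mm10, counting by featureCounts and comparison by DESeq2, with no versions. The labels and the methods name different library kits. The deposited signal values are normalized reads, whole multiples (within 1e-06) of 1 factor per library in 100% of values, so that reads were recovered. The deposited columns of the authors' own log2 fold changes and q-values, and of group averages and transcript numbers, were not used.

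Genes with a mean of at least 10 were tested with limma (version 3.58.1, R 4.3.3) and a trended prior, without a block, calling genes at adjusted p < 0.05 and, separately, also at an absolute log2 fold change of at least 1. The fit was tested on simulated data. Alternatives were pseudocounts of 0.1 and 10, a minimum mean of 100 or any mean over 0, scaling by TMM or quantiles, a prior with no trend, weighted libraries, a block for the replicate number, leaving out single libraries, and edgeR (4.0.16) and DESeq2 (1.42.0) on recovered reads. No set test was run. Replicates differed by more than counting noise (median chi-square 1.32 to 3.02 times its expectation).

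The 8 genes, the lists and the motifs were chosen with earlier results of these data known. Named genes are the 8, up to 3 called genes of each list and direction with the largest change, the 3 nearest patterns to *Foxp3* and to the gene with the largest change, and genes directly tied to one of the 8. Of the list genes, *Il2ra*, *Ikzf2*, *Klrg1*, *Itgb8*, *Skil*, *Tgfbr1*, *Smad2*, *Smad4*, *Smad7*, *Rel*, *Stat5a*, *Stat5b*, *Pde3b*, *Zap70*, *Adora2a*, *Ada*, *Entpd4*, *Nrp2*, *Tcf7* and *Klf2* were named after their values were seen. Coordinates are from RefSeq on GRCm38.p6 (mm10), matched by gene number for 16135 genes. Exon lengths are from GENCODE M21, matched by symbol for 15652 genes. Some genes that the rule names are not reported here.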

Additional observations from a re-analysis of the deposited data

How the results depend on the processing

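*Nrp1*, *Entpd1*, *Nt5e*, *Lrrc32*, *Gpr83* and *Izumo1r* kept their direction and their call under every alternative in which they were tested. At a minimum mean of 100, *Entpd1* and *Foxp3* were not tested, which left 1 gene at 2-fold in place of 2. *Foxp3* was called lower under quantile normalization (-0.57), and over the fits that leave out 1 library its log2 fold change ranged from -0.54 to -0.27. *Ebi3* lost its call with all genes with a mean above 0 (-0.18), under quantile normalization (-0.18), in eBayes without a trend (-0.18), with library weights (-0.12) and with DESeq2 (-0.18), and ranged from -0.25 to -0.10 with 1 library left out. Of the 2 folate carriers, 1 was called at a minimum mean of 100, 1 with DESeq2, and between 1 and 2 with 1 library left out. No gene changed sign where it was called either as reported or under the alternative. Sign changes of genes called in neither were not counted. For single list genes, 83 values lost and 23 gained a call out of all alternatives, and 2169 stayed called or not called as reported. The causes were not tested. Over all genes the count at 2-fold was 427, against 259 with a pseudocount of 10, 703 with all genes with a mean above 0 and 162 at a minimum mean of 100.

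Deviations of same-numbered libraries from their group means had correlations of -0.05, 0.04 and -0.08 across genes. Differently numbered libraries reached a similar size, 0.09 for WT replicate 3 with mutant replicate 1. No variation shared by replicate number was thus seen, but these values cannot tell whether libraries were prepared as pairs. With the replicate number as a block, 7 of the 8 genes were called, as without it, and the count over all genes went from 6056 to 5727. Depth limits *Foxp3* and *Entpd1* most, with 33 to 61 and 30 to 93 reads per library.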
